A study of Mus musculus with 28 samples.

Results

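Cxcl9, Cxcl10 and Cxcl11 encode the 3 chemokines that bind the receptor CXCR3, and their messenger RNA was followed here through 28 libraries of mouse bone marrow-derived macrophages (BMM) in 7 groups of 4. The 3 genes were taken by symbol from 56951 Ensembl gene IDs found in either of 2 count tables, and all 3 were measured and passed the filter on low counts in both. They were chosen on measured values. Cxcl10 was picked for lying at the wild-type level where the type I interferon receptor is missing, and Cxcl11 for responding to fenofibrate very differently in the 2 genotypes. The values of Cxcl10 in the first experiment and of Cxcl11 in the second are therefore given as a description, without a p-value.

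The first experiment compared macrophages from wild-type mice (WT), from mice lacking the immunity-related GTPase Irgm1 (Irgm1-KO) and from double-deficient mice without Irgm1 and without IFNAR, the receptor for type I interferon (Irgm_IFNAR-KO), with no treatment named. The second compared WT and Irgm1KO macrophages, each as a control and with 50 µM fenofibrate, a fibrate used against high blood lipids and an agonist of PPAR-alpha. All mice were on or backcrossed to C57BL/6, of both sexes and 2 to 4 months old, and all cells were grown for 6 days with L929-conditioned medium, a source of macrophage colony-stimulating factor, and then held for 24 h without it. No treatment label names interferon-gamma, and no group lacks IFNAR alone. The labels give neither how long fenofibrate was applied nor what the control cells received. They do not say whether the 4 libraries of a group are separate animals or cultures. The p-values therefore rest on variation among these libraries, which may be technical.

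CXCR3 is carried mainly by activated T cells and natural killer cells, and its ligands draw these cells into inflamed tissue. In macrophages CXCL9 is the classical target of interferon-gamma, whereas CXCL10 also responds to type I interferon, whose signal runs through STAT2 and IRF9, and to NF-kB, and CXCL11 is induced by both kinds of interferon. The C57BL/6 strain is known to carry a Cxcl11 gene that does not give a functional protein, so Cxcl11 is read below as a transcript only.

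The 3 genes lie side by side on the minus strand of chromosome 5. In the GENCODE M21 annotation of build GRCm38, their cluster spans 44.1 kb, with 18.6 kb between Cxcl9 and Cxcl10 and 10.7 kb between Cxcl10 and Cxcl11. Cxcl9 (ENSMUSG00000029417) and Cxcl10 (ENSMUSG00000034855) are annotated as protein coding, and Cxcl11 (ENSMUSG00000060183) as a polymorphic pseudogene (a transcribed pseudogene in RefSeq GRCm38.p6). Cxcl10 and Cxcl11 sit inside the span of Art3, which is read from the opposite strand, and Art3 exons share 133 exonic bases (8.75%) with Cxcl10 and 0 with Cxcl11. The sources used here do not give whether counting used strand. Art3 itself stayed between 0.102 and 0.788 CPM (counts per M of the scaled library total) in the 28 libraries, far under Cxcl10.

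The 250 bases upstream of the start site are printed for the 2 genes with an entry in the RefSeq promoter table (GRCm38.p6), so that the letters of the interferon and NF-kB motifs can be compared between the 2 genes. Both are on the minus strand and read 5′ to 3′ toward the gene. The Cxcl9 window is chr5:92328080-92328329 and the Cxcl10 window chr5:92348890-92349139. Capitals mark matches to 3 searched motifs on either strand: the interferon-stimulated response element core GAAANNGAAA, a binding site of IRF factors, and the NF-kB sites GGGANNTTCC and GGGANTTCC.
Cxcl9: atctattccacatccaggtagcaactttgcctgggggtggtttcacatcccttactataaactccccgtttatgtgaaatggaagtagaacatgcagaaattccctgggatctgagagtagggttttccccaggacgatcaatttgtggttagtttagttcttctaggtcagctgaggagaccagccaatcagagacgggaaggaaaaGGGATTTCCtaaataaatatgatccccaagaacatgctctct
Cxcl10: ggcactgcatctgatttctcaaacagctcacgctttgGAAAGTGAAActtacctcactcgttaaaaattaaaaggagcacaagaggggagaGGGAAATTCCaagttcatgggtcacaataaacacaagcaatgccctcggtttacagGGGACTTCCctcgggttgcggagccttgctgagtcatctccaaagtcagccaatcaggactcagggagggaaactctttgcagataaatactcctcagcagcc
The Cxcl10 window holds GAAAGTGAAA at 213 to 204 bases upstream, GGGAAATTCC at 159 to 150 and GGGACTTCC at 103 to 95. The Cxcl9 window holds 1 match, GGGATTTCC at 42 to 34 bases upstream. Of all 32851 windows of this length in the table, 2.98% hold GAAANNGAAA, 1.21% hold GGGANNTTCC and 1.43% hold GGGANTTCC. The gamma-activated site in the form TTCNNNGAA, present in 7.02% of windows, is in neither of these 2. A match is a run of letters and does not show that a factor is bound.

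Library totals were 48.7 to 70.5 M counts in the first experiment and 82.4 to 120.8 M in the second. Irgm1 was at 628 to 839 CPM in Irgm1-KO and 641 to 786 CPM in Irgm_IFNAR-KO libraries against 1189 to 1352 CPM in WT, and at 991 to 1144 CPM in Irgm1KO against 1470 to 1673 CPM in WT libraries of the second experiment. Irgm1 counts thus remained in every mutant library. The labels do not say which part of the gene is deleted, so these totals do not by themselves show its loss. All 8 macrophage markers exceeded 1 CPM in every group, though their summed level was lower in Irgm1-KO (9428 to 14606 CPM) than in WT (21161 to 41487) or Irgm_IFNAR-KO (28663 to 39956). Markers of T cells and natural killer cells, the main makers of interferon-gamma, summed to at most 3.79 and 1.15 CPM (1 marker of each list in the first experiment). Neutrophil markers summed to at most 34.5 CPM, B cell markers to 1.88, stromal markers to 1.10 and erythroid markers to 0.0808. In the first experiment these sums rest on 5 of 7 neutrophil, 1 of 5 B cell and 2 of 4 stromal markers. No erythroid marker was measured there, so the erythroid value covers the second experiment only. Ifng had 0 counts in all 16 libraries of the second experiment, which allows up to 0.0248 to 0.0364 CPM by counting error (3 counts). The counts of the first experiment hold no entry for Ifng, so its level there is not known. A few marker lists differed between the genotypes. The plasmacytoid dendritic cell list summed to 1122 to 1486 CPM in Irgm1-KO, 437 to 535 in WT and 264 to 310 in Irgm_IFNAR-KO, of which Bst2, itself an interferon target, made up a mean of 1178, 395 and 211 CPM, while the defining marker Siglech did not exceed 0.0454 CPM in the second experiment. The endothelial list summed to 113 to 199, 22.8 to 32.7 and 10.2 to 15.2 CPM in the same order, with Kdr at a mean of 160 CPM in Irgm1-KO and the defining marker Cdh5 at a mean of 0.355 CPM. Conventional dendritic cell markers summed to 26.0 to 31.5 CPM in Irgm1-KO, 50.1 to 63.8 in WT and 61.4 to 71.5 in Irgm_IFNAR-KO. The part of these cells in the results was not tested, and in bulk RNA fewer expressing cells and less RNA per cell cannot be told apart.

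**Figure D1:**
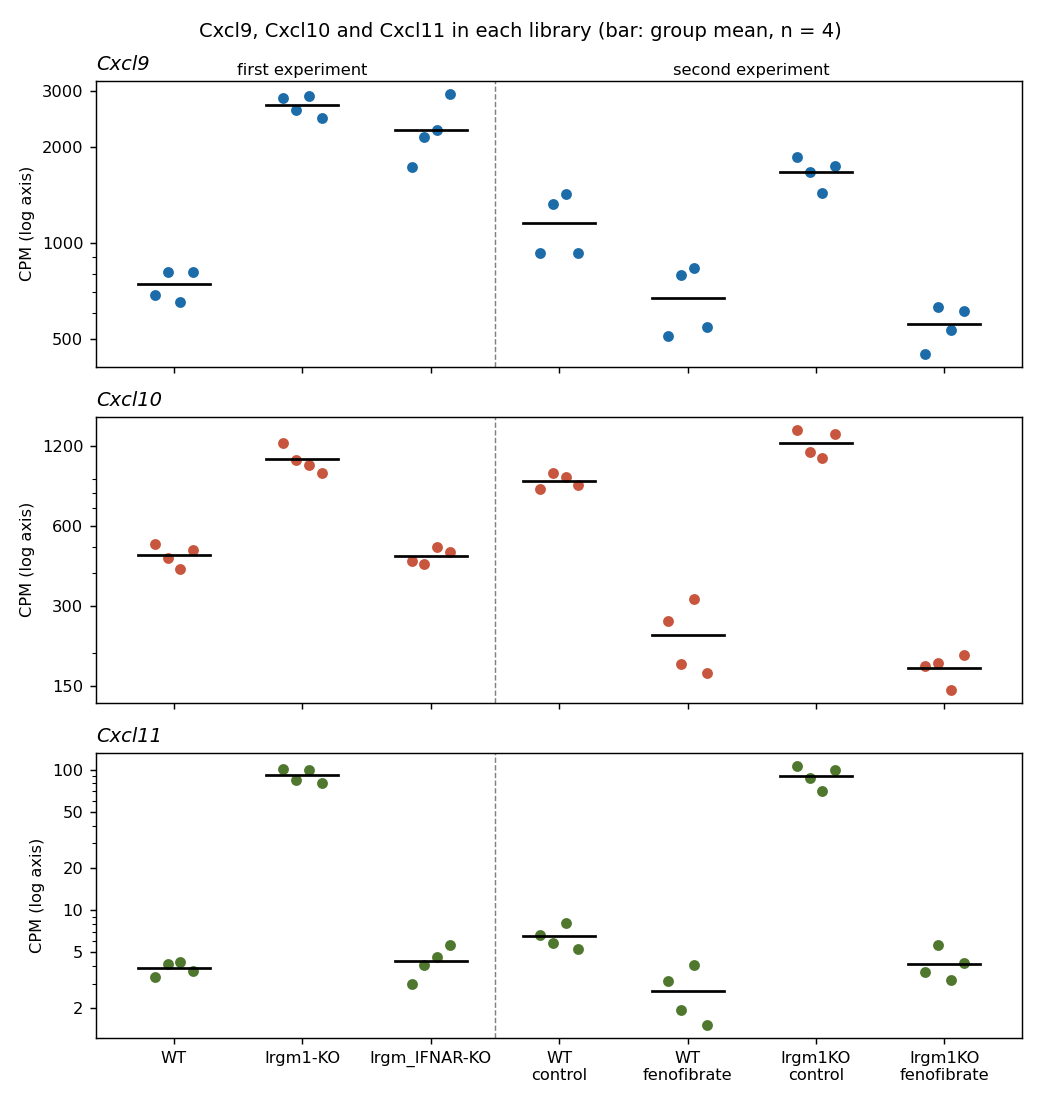
Level of Cxcl9, Cxcl10 and Cxcl11 in each library, in CPM on a log axis, for the 7 groups of the 2 experiments. Points are libraries and bars are group means (n = 4). Cxcl10 and Cxcl11 of Irgm_IFNAR-KO overlap the WT points, while Cxcl9 of Irgm_IFNAR-KO lies at 1728 to 2943 CPM, above every WT library.

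Cxcl9 was higher than in WT both in Irgm1-KO macrophages and in Irgm_IFNAR-KO macrophages, which also lack the type I interferon receptor. Cxcl9 was at 687, 811, 653 and 812 CPM in the WT libraries, at 2858, 2629, 2907 and 2466 CPM in Irgm1-KO and at 1728, 2149, 2275 and 2943 CPM in Irgm_IFNAR-KO. All 8 mutant libraries lay above all 4 WT libraries, and the 2 mutant groups overlapped. The log2 fold change of Irgm1-KO over WT was 1.87 (SE 0.146, adjusted p = 1.08e-06, edgeR quasi-likelihood test), in a comparison where 19.8% of tested genes were called higher, 20.7% were called lower and 17.5% lay higher without overlap. For Irgm_IFNAR-KO over WT it was 1.62 (SE 0.145, adjusted p = 1.73e-05), a 3.07-fold difference. There, 3.94% of genes were called higher, 8.22% were called lower and 7.5% lay higher without overlap.

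The step from Irgm1-KO to Irgm_IFNAR-KO did not pass the test for Cxcl9. Its log2 fold change was -0.26 (SE 0.142, 95% interval -0.57 to 0.05, adjusted p = 0.17), so a fall of up to 0.57 on the log2 scale lies within the interval. The value depended on the fourth Irgm_IFNAR-KO library, the highest of its group: without it the log2 fold change was -0.40 (adjusted p = 0.0187), a call. The other 3 lay at 1728 to 2275 CPM, under every Irgm1-KO library.

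Cxcl11 rose in Irgm1-KO and overlapped the WT libraries where the receptor was missing as well. It was at 3.34, 4.11, 4.25 and 3.70 CPM in WT, at 101, 83.8, 98.7 and 80.5 CPM in Irgm1-KO and at 2.995, 4.09, 4.64 and 5.64 CPM in Irgm_IFNAR-KO. The Irgm1-KO libraries stood clear of the other 8, which overlapped with each other. The rise over WT was 23.6-fold (log2 fold change 4.56, SE 0.184, adjusted p = 9.26e-09), and the change from Irgm1-KO to Irgm_IFNAR-KO was -4.39 (SE 0.182, adjusted p = 3.94e-09), in a comparison where 21.3% of tested genes were called lower, 21.5% higher and 21.1% lay lower without overlap. Between Irgm_IFNAR-KO and WT the log2 fold change was 0.17 (SE 0.169, 95% interval -0.20 to 0.54, adjusted p = 0.671).

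Cxcl10, whose values here chose it, differed less between Irgm1-KO and WT than the other two and, like Cxcl11, lay in the wild-type range without the receptor. Its libraries were at 513, 452, 414 and 488 CPM in WT, at 1230.3, 1064, 1017 and 950.4 CPM in Irgm1-KO and at 441, 432, 501 and 478 CPM in Irgm_IFNAR-KO. The WT and Irgm_IFNAR-KO libraries covered nearly the same range, and every Irgm1-KO library was above both. The log2 fold changes were 1.19 (SE 0.0981) for Irgm1-KO over WT, -1.20 (SE 0.0981) for Irgm_IFNAR-KO over Irgm1-KO and -0.01 (SE 0.0967) for Irgm_IFNAR-KO over WT. The last of these lay on either side of 0, from -0.06 to 0.03, as single libraries were left out.

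Per kb of exon, which allows levels of different genes to be set side by side, the mix of the 3 transcripts differed between the genotypes. The length is the union of annotated exons (2889 bases for Cxcl9, 1520 for Cxcl10 and 3794 for Cxcl11). The length of the transcripts present was not measured, so the order between genes depends on this choice. In WT, Cxcl10 was at 307 ± 28.3 CPM per kb, Cxcl9 at 256 ± 28.8 and Cxcl11 at 1.01 ± 0.108 (SD, n = 4). In Irgm1-KO the order was Cxcl9 (939.8 ± 71.1), Cxcl10 (701 ± 78.6) and Cxcl11 (24.0 ± 2.72). In Irgm_IFNAR-KO, Cxcl9 was at 787 ± 174, Cxcl10 at 305 ± 21.0 and Cxcl11 at 1.14 ± 0.291 CPM per kb. Cxcl9 thus exceeded Cxcl10 in each Irgm_IFNAR-KO library, by a factor of 2.06 to 3.24, and lay under it in each WT library, at 0.705 to 0.944 of its level. Within each library, the ratio of Cxcl9 to Cxcl11 removes the scaling between libraries. It was 255 ± 37.3 in WT, 39.3 ± 1.76 in Irgm1-KO and 694 ± 47.4 in Irgm_IFNAR-KO, with no overlap between the 3 groups. On the log2 scale it was higher in Irgm_IFNAR-KO than in Irgm1-KO by 4.14 (SE 0.0586) and than in WT by 1.46 (SE 0.122). Each of these 2 differences had p = 0.0286 in a two-sided exact permutation test, the smallest that 4 against 4 libraries can give. After Benjamini-Hochberg adjustment over the 4 ratio tests made, p was 0.0572. The other 2 tests, given below, cannot go under 0.125, so 0.0572 is the smallest adjusted value possible here. No data could thus have passed the threshold of 0.05, and these tests decide nothing. The ratios were chosen for testing after their values had been seen.

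**Figure D2:**
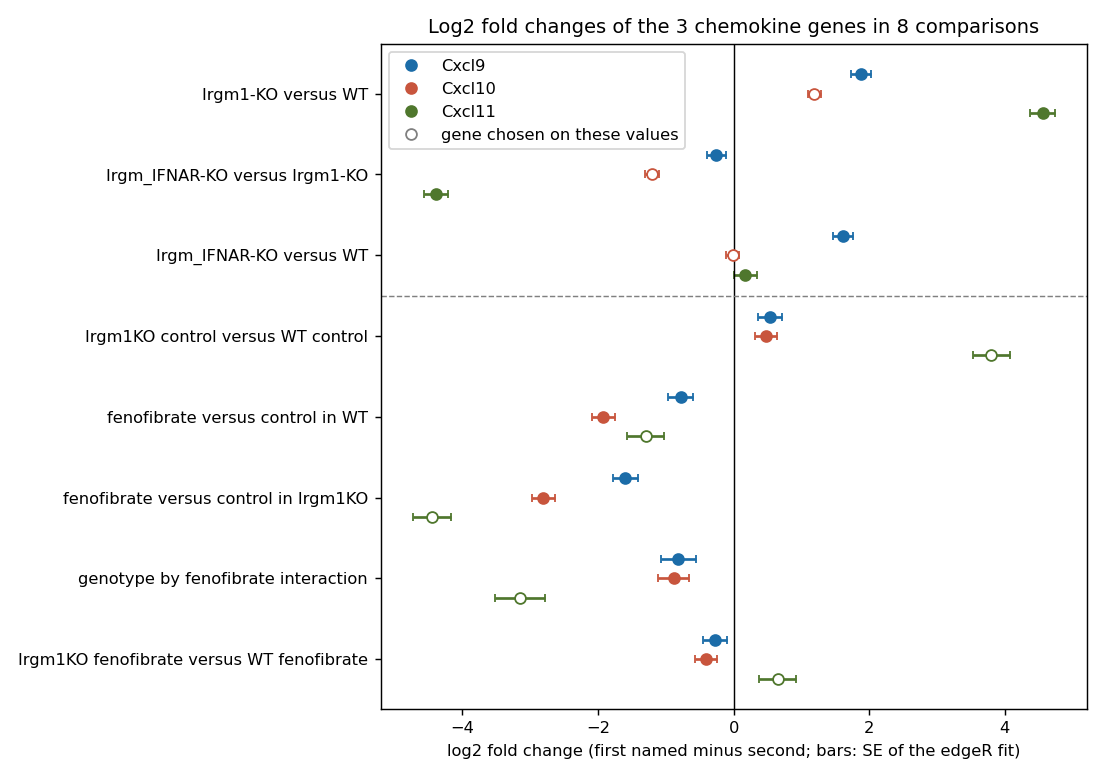
Log2 fold changes of the 3 genes in 8 comparisons, with the standard error of the edgeR fit as bars. Open points are values on which the gene was chosen and carry no test. Cxcl9 stays at 1.62 in Irgm_IFNAR-KO over WT where Cxcl10 and Cxcl11 lie near 0, and all 9 fenofibrate and interaction points lie under 0.

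In the second experiment the 2 control groups again differed in all 3 genes, with a smaller difference for Cxcl9 and Cxcl10. Levels were set against each other only within an experiment, since the 2 tables were made and scaled separately. Cxcl9 was at 929, 1326, 1424 and 930.0 CPM in WT controls and at 1865, 1672, 1432 and 1740.4 CPM in Irgm1KO controls. The lowest Irgm1KO library was only just above the highest WT library, and the fitted difference was 0.54 on the log2 scale (SE 0.18; adjusted p = 0.0188). Cxcl10 was at 829, 944, 911 and 854 CPM in WT and at 1375, 1134, 1076 and 1324 CPM in Irgm1KO controls, without overlap, and 0.47 higher on the log2 scale in the fit (SE 0.163; adjusted p = 0.0229). Of all tested genes, 27.3% were called higher in this comparison and 27.8% did not overlap in that direction, so such calls were common among all genes. Both calls were lost when a single library was left out. For Cxcl9 this held without WT control 1 (adjusted p = 0.0584), WT control 4 (0.0636) or Irgm1KO control 1 (0.0534), and for Cxcl10 without WT control 1 (0.0531), WT control 4 (0.0528), Irgm1KO control 1 (0.0676) or Irgm1KO control 4 (0.0535).

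Cxcl11, described only, was at 6.70, 5.88, 8.14 and 5.30 CPM in WT controls and at 107, 87.6, 70.03 and 99.1 CPM in Irgm1KO controls. The groups were far apart, with a log2 fold change of 3.80 (SE 0.272), beside 4.56 in the first experiment. For Cxcl9 the 2 experiments gave 1.87 and 0.54, and for Cxcl10 1.19 and 0.47. Differences between the experiments were not tested. The Irgm1KO controls also stood out in the marker lists that moved in the first experiment: the endothelial list summed to 131 to 224 CPM against 32.0 to 46.2 in WT controls, the plasmacytoid dendritic cell list to 674 to 788 against 303 to 354 CPM, and the macrophage list to 10544 to 12746 against 22139 to 30726 CPM. The conventional dendritic cell list was higher here, at 55.5 to 61.8 against 29.1 to 48.3 CPM, whereas it was lower in Irgm1-KO than in WT in the first experiment.

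Fenofibrate lowered Cxcl9 and Cxcl10 in both genotypes. In WT, Cxcl9 was at 509, 794, 836 and 544 CPM with the drug, -0.78 on the log2 scale against controls (SE 0.181; adjusted p = 0.00343). In Irgm1KO it was at 448, 629.7, 530.5 and 611 CPM, a difference of -1.60 (SE 0.184; adjusted p = 4.58e-06). In both genotypes every treated library lay under every control of its genotype. Cxcl10 fell to 265, 182, 318 and 168 CPM in WT (log2 fold change -1.92, SE 0.169, adjusted p = 1.64e-06). In Irgm1KO it fell to 178, 183, 146 and 196 CPM (log2 fold change -2.80, SE 0.174, adjusted p = 1.35e-08), again with no overlap. In WT, 16.9% of tested genes were called lower, 18.1% higher, and 18% lay lower without overlap. In Irgm1KO the shares were 22.2%, 23.5% and 20.8%. Marker lists moved with the drug too: the macrophage list summed to 13949 to 22491 CPM in treated WT against 22139 to 30726 in WT controls, but to 14989 to 18387 in treated Irgm1KO against 10544 to 12746 in its controls. The endothelial list summed to 32.7 to 43.4 CPM in treated Irgm1KO, and the conventional dendritic cell list to 8.83 to 25.6 CPM in treated WT against 29.1 to 48.3 in controls. The plasmacytoid dendritic cell list summed to 415 to 481 CPM in treated Irgm1KO against 674 to 788 in its controls, and to 326 to 387 against 303 to 354 CPM in WT. Their part in the result was not tested.

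Cxcl11 with fenofibrate was at 3.12, 1.96, 4.10 and 1.51 CPM in WT and at 3.61, 5.61, 3.18 and 4.18 CPM in Irgm1KO. The log2 fold changes were -1.30 (SE 0.269) and -4.45 (SE 0.283). The second of these was the fourth largest in size of 15429 tested genes, and it belongs to the values that chose the gene. In Irgm1KO the drug groups of all 3 genes thus lay at or under the WT control range: as a share of the WT control mean, the treated Irgm1KO mean was 48.2% for Cxcl9, 19.9% for Cxcl10 and 63.7% for Cxcl11. Only for Cxcl11 did the treated Irgm1KO libraries overlap the WT controls.

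**Figure D3:**
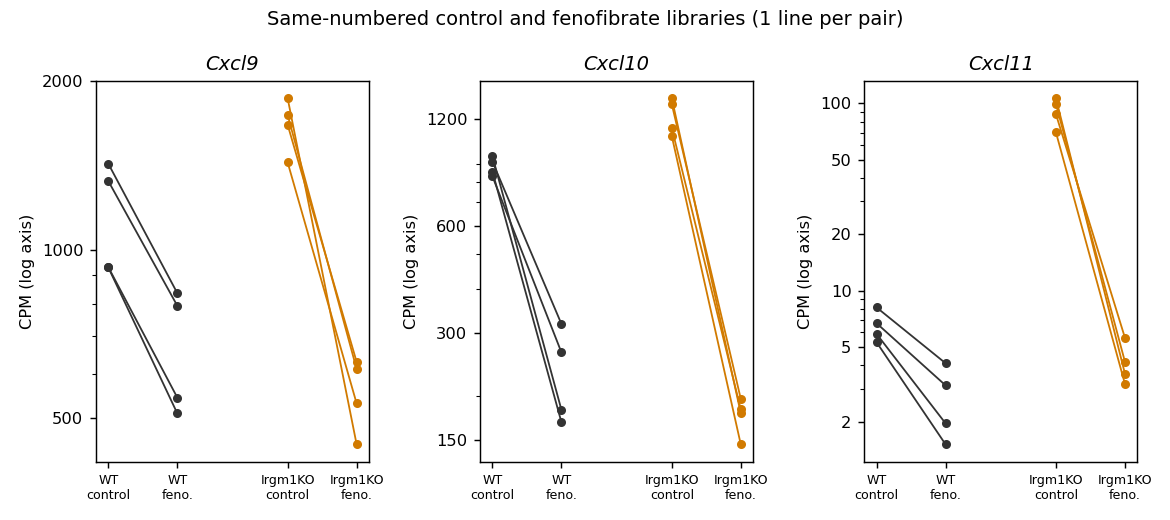
Same-numbered control and fenofibrate libraries joined by lines, in CPM on a log axis, for each gene in WT and Irgm1KO cells of the second experiment (feno. is fenofibrate). All 24 lines go down, which follows from the lack of overlap between treated and control groups. Of all tested genes, 18% in WT and 20.8% in Irgm1KO lay lower without overlap. The Cxcl11 lines of Irgm1KO fall to 3.38% to 6.41% of their control.

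Same-numbered control and fenofibrate libraries deviated from their group means together across all genes, so the fall can be read within a pair. In WT, treated Cxcl9 was at 54.8%, 59.8%, 58.7% and 58.5% of the control of the same number, and treated Cxcl10 at 31.9%, 19.3%, 34.9% and 19.7%. The 4 WT pairs were nearly alike for Cxcl9 (SD 0.0548 on the log2 scale) and spread more for Cxcl10 (SD 0.451), although the Cxcl9 controls themselves ran from 929 to 1424 CPM. In Irgm1KO, Cxcl9 was at 24.0%, 37.7%, 37.1% and 35.1% of its controls, Cxcl10 at 12.97%, 16.1%, 13.5% and 14.8%, and Cxcl11 at 3.38%, 6.41%, 4.55% and 4.22%. For Cxcl11 in WT the shares were 46.6%, 33.3%, 50.3% and 28.5%. The log2 ratio of Cxcl10 to Cxcl9 was lower with the drug in 4 of 4 pairs of each genotype. The mean difference within pairs was -1.18 in WT (SE 0.242) and -1.20 in Irgm1KO (SE 0.116). Each had p = 0.125 in a two-sided exact permutation test over the pairs, the smallest that 4 pairs can give, and p = 0.125 after adjustment over the same 4 ratio tests, so this design cannot reach the threshold. Per kb, Cxcl9 stood at 0.681 ± 0.120 of Cxcl10 in WT controls and 0.720 ± 0.0381 in Irgm1KO controls, and at 1.60 ± 0.541 and 1.67 ± 0.260 with fenofibrate (SD, n = 4).

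The drop was larger in Irgm1KO than in WT for Cxcl9 and Cxcl10. The interaction, the fenofibrate log2 fold change of Irgm1KO minus that of WT, was -0.81 for Cxcl9 (SE 0.254, adjusted p = 0.025) and -0.88 for Cxcl10 (SE 0.231, adjusted p = 0.00952), in a test where 14.7% of genes were called in that direction and 14.9% in the other. For Cxcl11 it was -3.15 (SE 0.374), a described value. The Cxcl9 interaction was lost without WT control 4 (adjusted p = 0.0534), WT fenofibrate 2 (0.0519), WT fenofibrate 3 (0.0552) or Irgm1KO control 1 (0.0527). All these fits leave the pairing of libraries out. With a replicate block in the same edgeR test, the interaction was -0.81 for Cxcl9 (SE 0.124, adjusted p = 0.000325). For Cxcl10 it was -0.84 (SE 0.189, adjusted p = 0.00559). Leaving libraries out was not combined with the block. The interaction and the comparison of the controls share the same 8 control libraries and are not independent.

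With fenofibrate the 2 genotypes overlapped in all 3 genes. For Irgm1KO over WT with the drug, the log2 fold change of Cxcl9 was -0.27 (SE 0.18, 95% interval -0.66 to 0.11, adjusted p = 0.261). That of Cxcl10 was -0.41 (SE 0.164, 95% interval -0.76 to -0.06, adjusted p = 0.066), in a comparison where 15.2% of genes were called lower. The interval covers this comparison alone, and the p-value is adjusted over all genes. Without WT fenofibrate 2 or 4, the 2 lowest WT libraries, Cxcl10 passed at -0.51 (adjusted p = 0.0311) and -0.54 (adjusted p = 0.0139). For Cxcl11 the described value was 0.65 (SE 0.272). In descending order of group mean, Cxcl9 ran from Irgm1KO control to WT control, WT fenofibrate and Irgm1KO fenofibrate, and Cxcl10 ran in the same order. In each, only the last 2 neighbours overlapped. Cxcl11 ran from Irgm1KO control to WT control, Irgm1KO fenofibrate and WT fenofibrate, and each neighbour after the first overlapped the next.

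Of 5 fixed genes for the receptor, a related ligand and ligand processing, 3 were tested. In Irgm1-KO over WT 0 rose and 1 fell, where 19.8% of all tested genes rose and 20.7% fell. From Irgm1-KO to Irgm_IFNAR-KO 1 rose and 1 fell, where 21.5% rose and 21.3% fell. Cxcr3 fell by 0.47 in log2 units (adjusted p = 0.00465, SE 0.111), from 5.60 ± 0.418 CPM in WT to 4.03 ± 0.253 CPM in Irgm1-KO. It was at 5.86 ± 0.845 CPM in Irgm_IFNAR-KO, a low level throughout. Pf4, which encodes the platelet chemokine CXCL4, was at 35.4 ± 14.5, 25.2 ± 6.53 and 12.4 ± 1.88 CPM in WT, Irgm1-KO and Irgm_IFNAR-KO (log2 fold change -1.02 for the second step, SE 0.26, adjusted p = 0.00718). Dpp4, the peptidase that trims CXCR3 ligands, fell with fenofibrate in both genotypes. It was at 2.35 ± 0.332 CPM in WT controls and 0.770 ± 0.317 with the drug (adjusted p = 0.0112), and at 1.70 ± 1.06 and 0.697 ± 0.438 CPM in Irgm1KO (adjusted p = 0.0296). Of the other CXC chemokines, 4 were tested in the first experiment. From Irgm1-KO to Irgm_IFNAR-KO 1 rose and 2 fell, beside 21.5% and 21.3% of all tested genes. Cxcl2, a neutrophil attractant, fell from 1.42 ± 0.319 to 0.253 ± 0.115 CPM (adjusted p = 4.32e-05), and Cxcl12, the ligand of CXCR4, rose from 0.994 ± 0.284 to 7.25 ± 0.529 CPM (adjusted p = 5.92e-06). Cxcl16, which encodes a transmembrane chemokine, was at 342 ± 53.0 and 338 ± 40.4 CPM (adjusted p = 0.942).

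**Figure D4:**
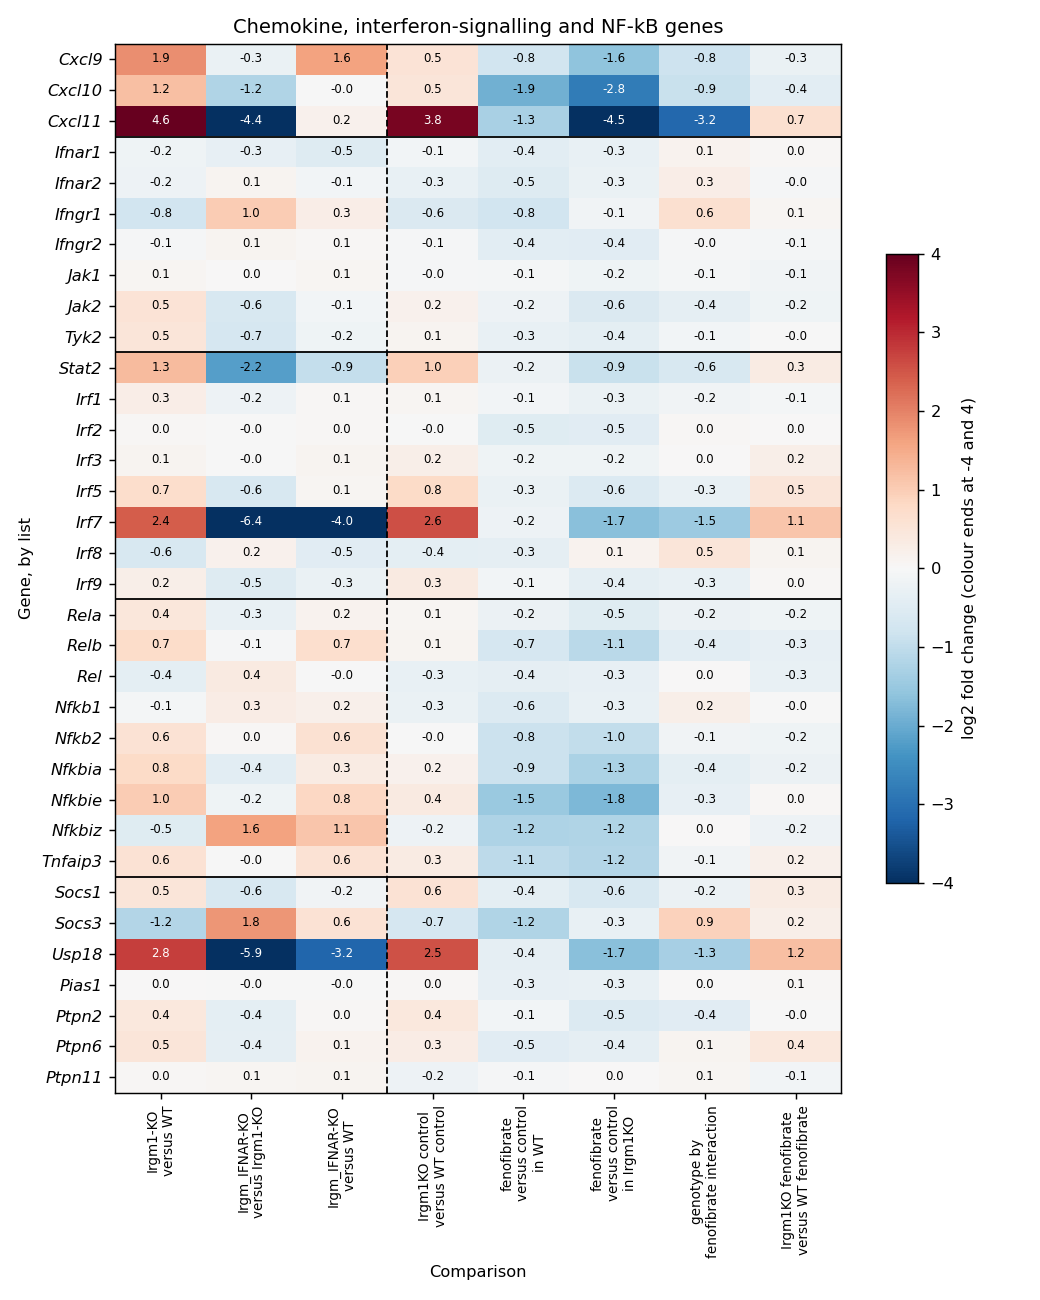
Log2 fold changes of the chemokines and of genes from 4 lists in the 8 comparisons, as colours with the value written in each cell; solid lines separate the lists, and the dashed line the 2 experiments. The 9 NF-kB genes are lower with fenofibrate in both genotypes, and 6 pass the test as higher in Irgm1-KO and 6 in Irgm_IFNAR-KO over WT. Genes with a group mean under 0.5 CPM, such as Ifnb1, are left out.

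Among the genes that carry interferon signals, more rose than fell in Irgm1-KO. Of 9 STAT and IRF genes, 5 rose and 1 fell in Irgm1-KO over WT, where 19.8% of all tested genes rose and 20.7% fell. From Irgm1-KO to Irgm_IFNAR-KO 0 rose and 6 fell, where 21.5% of all tested genes rose and 21.3% fell. Stat2, a subunit of the type I interferon complex, went from 291 ± 58.9 CPM in WT to 705 ± 76.0 in Irgm1-KO and 152 ± 14.2 in Irgm_IFNAR-KO (adjusted p = 2.46e-07 for the second step). Irf7, which amplifies type I interferon production, went from 462 ± 108 to 2457 ± 362 and 28.7 ± 3.02 CPM (adjusted p = 3.16e-10). Irf1, an interferon-induced factor, changed much less, from 1004 ± 43.5 to 1194 ± 23.5 and 1039.6 ± 31.3 CPM (adjusted p = 0.0148). In Irgm_IFNAR-KO, Irf7 was under WT (log2 fold change -4.01, adjusted p = 4.91e-08), while Cxcl11 overlapped the WT libraries.

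Among 8 tested genes for interferons, receptors and JAK kinases, 3 rose and 2 fell in Irgm1-KO, and 1 rose and 3 fell from there to Irgm_IFNAR-KO. Of all tested genes, 19.8% rose and 20.7% fell in the first of these comparisons, and 21.5% rose and 21.3% fell in the second. Ifnb1, the gene of interferon-beta, was at 0.122 ± 0.0637 CPM in WT, 2.11 ± 1.13 in Irgm1-KO and 0.309 ± 0.213 in Irgm_IFNAR-KO, and at 0.0335 ± 0.0257 and 1.55 ± 0.510 CPM in WT and Irgm1KO controls and 0.139 ± 0.0676 CPM in Irgm1KO with fenofibrate. Ifngr1, a chain of the interferon-gamma receptor, went the other way, from 171 ± 10.2 CPM in WT to 102 ± 3.64 in Irgm1-KO and 207 ± 7.92 in Irgm_IFNAR-KO (adjusted p = 1.61e-07). Ifnar1 transcript was at 96.0 ± 28.8 CPM in Irgm_IFNAR-KO against 136 ± 5.54 in WT (adjusted p = 0.119). Of 7 brakes on interferon signalling, 4 rose and 1 fell in Irgm1-KO. From Irgm1-KO to Irgm_IFNAR-KO 1 rose and 4 fell, beside the same shares of all genes as above. Usp18, which blocks signalling at IFNAR, went from 98.7 ± 26.7 to 667 ± 188 and 11.01 ± 2.52 CPM (adjusted p = 1.43e-08), and Socs1, a JAK inhibitor, from 72.2 ± 5.13 to 101 ± 5.27 and 65.0 ± 6.54 CPM (adjusted p = 7.26e-05).

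Of 9 NF-kB subunits and inhibitors, 6 rose and 0 fell in Irgm1-KO over WT, where 19.8% of all tested genes rose and 20.7% fell. In Irgm_IFNAR-KO over WT 6 rose and 0 fell, where 3.94% rose and 8.22% fell, with medians of 0.57 in each (all genes -0.02 and 0.01). These 2 comparisons share the WT libraries. From Irgm1-KO to Irgm_IFNAR-KO 1 rose and 2 fell (all genes 21.5% and 21.3%), with a median of -0.00. Nfkbie, an NF-kB inhibitor that NF-kB itself induces, was at 29.3 ± 1.27, 58.7 ± 4.33 and 52.1 ± 4.26 CPM in WT, Irgm1-KO and Irgm_IFNAR-KO, and Relb, a subunit of the noncanonical pathway, at 21.2 ± 2.83, 35.1 ± 4.30 and 33.8 ± 1.27 CPM. The 2 that fell were Nfkbia (log2 fold change -0.41, adjusted p = 0.000992) and Rela (-0.30, adjusted p = 0.0465). With fenofibrate all 9 fell in WT, where 16.9% of all tested genes fell, and all 9 in Irgm1KO, where 22.2% fell, with medians of -0.85 and -1.09. Nfkbie was at 46.5 ± 4.03 CPM in WT controls and 16.8 ± 3.98 with the drug, and at 60.0 ± 6.56 and 17.3 ± 2.63 CPM in Irgm1KO.

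Targets typical of interferon-gamma were mixed. Of 12 such genes, 6 rose and 2 fell in Irgm1-KO over WT, where 19.8% of all tested genes rose and 20.7% fell. From Irgm1-KO to Irgm_IFNAR-KO 3 rose and 6 fell, where 21.5% of all genes rose and 21.3% fell. In Irgm_IFNAR-KO over WT, where 3.94% of all genes rose and 8.22% fell, 2 rose and 0 fell. The 2 were Ubd, which encodes a ubiquitin-like protein, at 4.56 ± 1.75, 34.4 ± 7.49 and 12.2 ± 2.90 CPM in WT, Irgm1-KO and Irgm_IFNAR-KO (adjusted p = 0.00318 for the last over the first), and Gbp2, a guanylate-binding protein gene (log2 fold change 0.34 over WT, adjusted p = 0.0124). Nos2, the inducible nitric oxide synthase, was at 14.2 ± 4.67, 239.8 ± 64.2 and 21.1 ± 5.42 CPM, and Ciita, which switches on MHC class II genes, at 521, 323 and 629 CPM on average. With fenofibrate 7 of the 12 fell and 2 rose in WT, and 9 fell and 0 rose in Irgm1KO. Of all tested genes 16.9% fell and 18.1% rose in WT, and 22.2% fell and 23.5% rose in Irgm1KO. In the interaction, where 14.7% of all tested genes were lower and 14.9% higher, the STAT and IRF list had 4 of 9 lower and 1 higher, the interferon-gamma-type list 3 of 12 lower and 1 higher, the NF-kB list 1 of 9 lower and 1 higher, the brakes 2 of 7 lower and 1 higher, and the interferon and receptor list 2 of 8 lower and 2 higher. The NF-kB share lies near that of all genes. Irf7 had an interaction of -1.47 (SE 0.238, adjusted p = 0.000316) and Nos2 of -1.55 (SE 0.301, adjusted p = 0.00144).

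The neighbours of the cluster on chromosome 5 moved in both directions. Of 7 tested neighbours, 2 rose and 3 fell in Irgm1-KO, and 5 rose and 2 fell from Irgm1-KO to Irgm_IFNAR-KO, with a median log2 fold change of 0.78 while the 3 chemokines were at -0.26, -1.20 and -4.39. Naaa, a lysosomal amidase gene, was at 393 ± 16.6, 196 ± 10.6 and 439 ± 20.1 CPM in WT, Irgm1-KO and Irgm_IFNAR-KO (adjusted p = 5.93e-08 for the second step). The 2 that rose in Irgm1-KO and fell again were Art3, which overlaps the cluster and was at 0.235 ± 0.0386, 0.460 ± 0.0752 and 0.229 ± 0.0750 CPM, and Nup54, a nuclear pore gene, at 13.5 ± 0.782, 17.3 ± 0.935 and 15.005 ± 0.436 CPM. The Art3 reads cannot be told apart from antisense reads of the cluster without knowing the strand. Of all tested genes, 19.8% rose and 20.7% fell in the first of these comparisons, and 21.5% rose and 21.3% fell in the second. In the interaction 2 of 8 tested neighbours were higher and 0 lower, beside 14.9% and 14.7% of all tested genes.

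The 5 genes whose log2 CPM followed each chemokine most closely differed between the 3. Likeness was the smaller of the Pearson correlations over the 12 and over the 16 libraries, among 8715 other genes, and it is a description only, because libraries fall into groups and share the same scaling. The correlations of this paragraph also cover the values on which Cxcl10 and Cxcl11 were chosen. For Cxcl9 the closest were Ube2f (r = 0.946 and 0.933), Gpr84 (0.916 and 0.914), Relb (0.909 and 0.910), Nfkbie (0.984 and 0.907) and Nfkbia (0.897 and 0.901), of which 3 are on the NF-kB list. For Cxcl10 they were Stx11 (0.980 and 0.961), Acp2 (0.947 and 0.956), Ikbke (0.954 and 0.943), Rab20 (0.957 and 0.942) and Hspa2 (0.951 and 0.939). For Cxcl11 they were BC023105 (0.989 and 0.990), Trim21 (0.984 and 0.983), Dync1i2 (0.987 and 0.976), Fez2 (0.972 and 0.979) and Clic4 (0.971 and 0.984). No gene was among the closest 5 of more than 1 chemokine, but this depends on the cut at 5. Nfkbia followed Cxcl10 nearly as closely as Cxcl9 (0.877 and 0.974, rank 35), and Cxcl11 less closely (0.882 and 0.748, rank 722). Between the chemokines, Cxcl10 and Cxcl11 were the closest pair by Pearson correlation in the first experiment (r = 0.979, against 0.600 for Cxcl9 with Cxcl10 and 0.634 for Cxcl9 with Cxcl11), and Cxcl9 and Cxcl10 in the second (r = 0.926, against 0.835 for Cxcl9 with Cxcl11 and 0.793 for Cxcl10 with Cxcl11). By Spearman's rho the closest pair in the first experiment was Cxcl9 with Cxcl11 (rho = 0.748, against 0.685 for Cxcl10 with Cxcl11 and 0.580 for Cxcl9 with Cxcl10). Ranks gave another set of genes: with Spearman correlation, 1 of the 5 for Cxcl9, 1 of the 5 for Cxcl10 and 0 of the 5 for Cxcl11 were again among the closest 5.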

How the data were processed

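Messenger RNA libraries were sequenced for 100 cycles in the first experiment and 50 cycles in the second, per the labels. The authors deposited a table of raw read counts per Ensembl gene for each experiment. The submitters' processing notes name fastp, STAR, DESeq2 and build GRCm39. The versions, the counting tool and whether it used strand were not found in the sources used here.

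IDs with a symbol made up 99.6% and 91.2%. The analysis used edgeR 4.0.16 and limma 3.58.1 (R 4.3.3). Genes kept by filterByExpr (minimum count 10, minimum total 15), 13998 and 15429 of 15423 and 56941, entered 1 robust quasi-likelihood fit per experiment over all its groups, with TMM scaling and glmQLFTest. P-values were adjusted by Benjamini-Hochberg over all tested genes (threshold 0.05). The script was tested on simulated data with 200 changed genes per experiment. Of simulated log2 changes of size 1, it recovered 76.6% in the first experiment and 81.1% in the second. For size 2 the shares were 91.0% and 96.7%. Smaller changes were not simulated. CPM use TMM-scaled totals, and values are mean ± SD over 4 libraries. Per-kb levels use the union of GENCODE M21 exons over all transcripts of a gene, retained introns left out. Likeness used log2(CPM + 0.5) for genes of at least 5 CPM on average in both experiments.

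The members, the 8 gene lists and the 10 marker lists were chosen with earlier results of these data known. Named besides the chemokines were genes fixed by name, list members with the smallest p-values and the 5 most alike. A gene that this rule covers is not reported here. A few others were named after their values were seen, among them Ubd, Gbp2, Cxcl2, Rela and Nup54 as members of small counts.

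Same-numbered control and fenofibrate libraries correlated in their deviations from the group mean with r of 0.524 to 0.738 in WT (other numbers -0.464 to 0.219) and 0.383 to 0.596 in Irgm1KO (-0.359 to 0.0762), so these numbers pair the libraries. The main fits do not use this pairing. Numbers did not pair the first experiment (-0.673 to 0.712). Alternatives were DESeq2 1.42.0, its size factors, no filter, only the groups compared, 1 gene left out of the totals, an Xist covariate for sex, a replicate block and each library left out.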

Additional observations from a re-analysis of the deposited data

Results flagged for a closer look

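Fenofibrate lowered 2 of the chemokines by different amounts in the 2 genotypes, by a test of the difference itself. The interaction was -0.81 on the log2 scale for Cxcl9 (adjusted p = 0.025, range over 6 alternatives 0.000325 to 0.0887) and -0.88 for Cxcl10 (adjusted p = 0.00952, range 0.000719 to 0.0397), in edgeR's quasi-likelihood fit. In both, all 4 Irgm1KO pairs and all 4 WT pairs went down, and the Irgm1KO pairs ended at a smaller share of their controls than any WT pair. The falling pairs follow from the lack of overlap between treated and control libraries. Such a lack of overlap, in the lower direction, held for 18% of all tested genes in WT and 20.8% in Irgm1KO. How many of all genes separate the pairs by genotype in this way was not computed. None of 21 groups of 4 values held a library whose gap to its neighbour passed Dixon's limit of 0.829. With 4 values this check can flag only 1 very distant library. When 1 library was left out, the Cxcl9 interaction kept its call in 12 of 16 fits and the Cxcl10 interaction in 16 of 16.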

How the results depend on the processing

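Of 110 recomputed values of the tested chemokine comparisons, other than those that leave out a library, 105 kept their direction and their side of the threshold, and 218 of 232 did so when 1 library was left out. No tested value changed sign. The comparisons given as a description have no threshold. Of their 116 values with 1 library left out, 3 changed sign, all for Cxcl10 in Irgm_IFNAR-KO over WT, which is near 0 (-0.06 to 0.03). Without the filter on low counts, which adds genes to the adjustment, the Irgm1KO control over WT control difference was 0.53 for Cxcl9 (adjusted p = 0.072) and 0.46 for Cxcl10 (0.0849), and the Cxcl9 interaction -0.81 (0.0887), none a call. The Cxcl10 difference between fenofibrate groups became a call with an Xist covariate (-0.51, adjusted p = 0.00411) and in DESeq2 (-0.42, 0.0314), and the cause was not tested. With 1 library left out, values ran from 0.45 to 0.66 for Cxcl9 and 0.41 to 0.53 for Cxcl10 between the controls, -0.95 to -0.69 for the Cxcl9 interaction, -0.40 to -0.16 for Cxcl9 in Irgm_IFNAR-KO over Irgm1-KO, and -0.54 to -0.22 for Cxcl10 between the fenofibrate groups. With the replicate block that uses the pairing, the fenofibrate change of Cxcl9 in WT was -0.79 (SE 0.0876, adjusted p = 2.37e-05), and no call on the chemokines changed under the block. The 16 recomputed counts of list members stayed within 1.5 times. Ranking by Spearman correlation shared 1, 1 and 0 of the 5 genes most like Cxcl9, Cxcl10 and Cxcl11. Depth did not limit the chemokines, since the smallest Cxcl11 value was 1.51 CPM, but it limits Ifnb1 and Ifng.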
